A study of Mus musculus with 12 samples.

Results

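The 9 genes described here, *Star*, *Cyp11a1*, *Hsd3b1*, *Hsd3b6*, *Cyp17a1*, *Hsd17b3*, *Insl3*, *Lhcgr* and *Nr5a1*, are genes of the testosterone-producing Leydig cell. They were chosen by name out of the 55385 genes of the deposited expression table, and each name matched a single gene. Because neither undifferentiated (Aundiff) nor differentiating (Adiff) spermatogonia make testosterone, their TPM (a share of the library's transcripts, corrected for their length) was read as a gauge of somatic RNA in the sorted cells. RNA-seq covered 12 libraries from mouse spermatogonia in 6 groups of 2, each library from pooled sorted cells of an independent biological replicate. WT Aundiff (E-Cadherin+ CD9-high KIT-) and WT Adiff (E-Cadherin+ CD9-medium KIT+) came from untreated C57BL/6 males of 2 to 3 mo. The other 8 libraries were Aundiff of the same gate from males on a C57BL/6 X FVB/NJ background at 2 mo, all lacking *Ring1*: PRC1cKO (Ring1-/-; Rnf2 F/-; Ddx4-Cre), in which *Rnf2* is deleted by a Cre that acts in germ cells, and PRC1ctrl littermates (Ring1-/-; Rnf2 F/+; Ddx4-Cre), each either untreated or given Win18,446. Win18,446 blocks the synthesis of retinoic acid and holds spermatogonia undifferentiated, and it was injected daily about 30 times from 1 mo of age, at 40 µg/µl in 50 µl DMSO, with sampling 24 h after the last injection.

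Leydig cells lie between the seminiferous tubules, outside the compartment that holds spermatogonia. On luteinizing hormone, which they sense through LHCGR, they move cholesterol into mitochondria with STAR, cleave its side chain with CYP11A1 to give pregnenolone, and convert this to testosterone with 3-beta-hydroxysteroid dehydrogenases, CYP17A1 and HSD17B3. They also secrete INSL3, the hormone of testis descent, and the nuclear receptor NR5A1 (SF-1) activates many genes of the pathway. Tubules were detangled and washed before dissociation and sorting, steps that reduce the interstitial cells carried along.

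The promoters are shown because the members are known for a shared regulator, NR5A1, and varied together in these libraries. RefSeq promoter sequences on GRCm38.p6, from 250 bases before to 50 bases after a start site, were at hand for 6 of the 9 members, *Cyp11a1* with 2 start sites, and not for *Star*, *Cyp17a1* and *Nr5a1*. Of these 7 sequences, 3 held AGGTCA or AAGGTC on either strand, overlapping half-sites of the kind that NR5A1 is known to bind, against 22.8% of the 32851 promoters of the same length. These letters were searched for after the sequences had been seen, and a match describes the letters and not a bound site. Matches are in capitals below, and the promoter of *Hsd3b1* is given as an example without any.
Insl3, chr8:71689002-71689301, plus strand: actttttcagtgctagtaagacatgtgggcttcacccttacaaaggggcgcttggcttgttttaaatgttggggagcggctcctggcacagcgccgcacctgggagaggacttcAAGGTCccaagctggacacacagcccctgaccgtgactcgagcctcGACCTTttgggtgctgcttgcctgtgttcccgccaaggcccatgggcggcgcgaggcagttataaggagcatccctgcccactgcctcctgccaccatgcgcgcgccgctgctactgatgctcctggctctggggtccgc
Cyp11a1, the second start site, chr9:58014702-58015001, plus strand: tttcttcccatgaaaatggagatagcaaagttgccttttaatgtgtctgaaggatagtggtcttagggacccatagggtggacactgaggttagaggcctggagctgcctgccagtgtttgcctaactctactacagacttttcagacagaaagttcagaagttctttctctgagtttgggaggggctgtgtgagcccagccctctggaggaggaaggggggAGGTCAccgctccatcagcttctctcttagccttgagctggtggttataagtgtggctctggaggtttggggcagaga
Lhcgr, chr17:88791965-88792264, minus strand: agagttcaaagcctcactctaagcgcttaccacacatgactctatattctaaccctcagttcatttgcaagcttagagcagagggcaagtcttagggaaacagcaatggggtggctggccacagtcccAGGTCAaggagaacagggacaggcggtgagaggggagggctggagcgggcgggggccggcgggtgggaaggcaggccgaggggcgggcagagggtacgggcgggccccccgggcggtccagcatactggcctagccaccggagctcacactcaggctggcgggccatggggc
Hsd3b1, chr3:98859745-98860044, minus strand: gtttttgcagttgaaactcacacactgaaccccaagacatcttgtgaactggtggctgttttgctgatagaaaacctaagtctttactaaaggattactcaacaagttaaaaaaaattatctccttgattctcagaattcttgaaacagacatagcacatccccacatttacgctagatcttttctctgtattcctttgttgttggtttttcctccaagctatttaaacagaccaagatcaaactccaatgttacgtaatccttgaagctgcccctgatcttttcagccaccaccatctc
The promoter of *Insl3* held AAGGTC at 136 bases before its start site and the same letters on the opposite strand at 90 bases before it. AGGTCA lay 28 bases before the second start site of *Cyp11a1* and 122 bases before that of *Lhcgr*. The promoter of *Insl3* lies within *Jak3*, and 64.8% of the exonic bases of *Insl3* are shared with exons of *Jak3* on the same strand. TPM of *Jak3*, a kinase of cytokine signalling, was between 0.01 and 1.36 in the 12 libraries, below that of *Insl3* in each of them. *Hsd3b1* and *Hsd3b6* lie in a cluster of paralogs on chromosome 3. Their longest transcripts were 77.3% identical and shared no stretch of 100 bases, the read length of the study, whereas 2.8% of such windows in *Hsd3b6* were also in *Hsd3b2*, which reached at most 2.68 TPM. *Hsd3b3* reached at most 0.06 TPM, and *Hsd3b4* and *Hsd3b5* were listed at 0 in all 12 libraries.

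TPM keeps no read depth, so the counting error of a value is unknown and its precision rests on 2 libraries per group. *Ring1* was at 0.03 to 0.25 TPM in the 8 PRC1 libraries and at 8.61 to 19.9 TPM in WT. *Rnf2*, however, was not lower under the label PRC1cKO (28.3 and 47.6 TPM in PRC1ctrl and 56.7 and 67.5 TPM in PRC1cKO at 2 mo; 78.1 and 67.2 TPM against 86.2 and 93.1 TPM after Win18,446). A gene total does not separate transcripts that lack the deleted exons, so this checks nothing about the deletion, and PRC1cKO below means the libraries labelled so. Spermatogonial and other germ cell markers summed to 1990 to 4846 TPM in every library, and the 9 Leydig genes to 0.0440% of a library at most.

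The untreated PRC1 libraries were made from about 7000 cells with a low-input kit (NEBNext Single Cell/Low Input, by Smart-Seq2), all others from 100000 to 150000 cells with TruSeq stranded mRNA. Measured levels followed base composition between these kits. Among genes whose longest transcript had at least 55% G + C, the median of PRC1ctrl at 2 mo was 2.10 lower than WT Aundiff on the log2(TPM + 1) scale, and among genes under 40% it was 0.95 higher. The same medians for PRC1ctrl after Win18,446 were 0.20 and 0.54. *Insl3* (63.6% G + C) and *Nr5a1* (59.2%) fall in the highest class, and the other members lie between 41.9% (*Lhcgr*) and 50.0% (*Cyp11a1*). Comparisons were therefore made within a kit, and levels in the low-input libraries are set beside the others only as values.

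**Figure D1:**
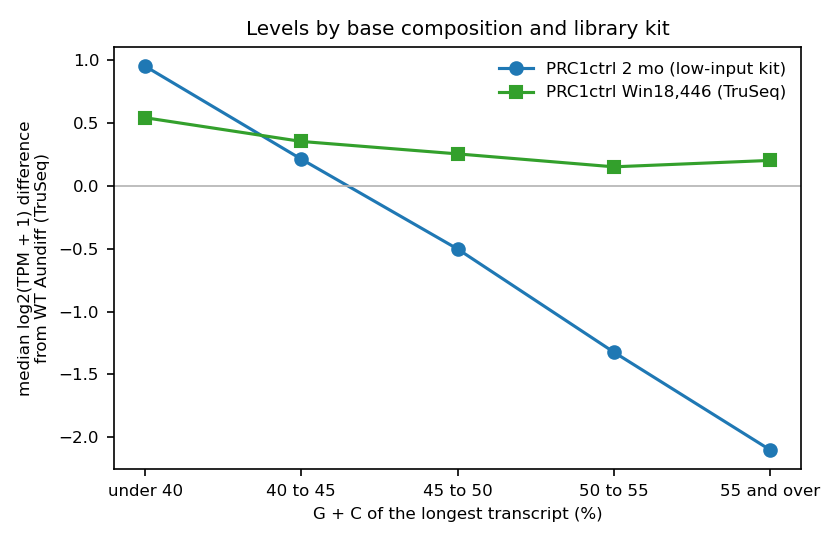
Median difference in log2(TPM + 1) from WT Aundiff (y axis) of genes grouped by the G + C content of their longest transcript (x axis, %), for PRC1ctrl libraries made with the low-input kit at 2 mo (circles) and with TruSeq after Win18,446 (squares). The low-input medians run from 0.95 in the lowest class to -2.10 in the highest, and the TruSeq medians stay between 0.15 and 0.54.

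Leydig cell transcripts were present at low but very uneven levels. The 9 genes summed to 24.5 and 47.3 TPM in WT Aundiff and to 11.6 and 44.4 TPM in WT Adiff. They summed to 1.42 and 1.41 TPM in PRC1ctrl and to 24.9 and 69.0 TPM in PRC1cKO at 2 mo, and after Win18,446 to 440.3 and 88.5 TPM in PRC1ctrl and to 89.3 and 27.7 TPM in PRC1cKO. Replicate 1 of PRC1ctrl after Win18,446 stood apart, with 4.97 times the sum of its partner, and the untreated PRC1ctrl libraries stood apart at the low end. By group mean the order was PRC1ctrl after Win18,446 (264.4 ± 248.8 TPM, SD, n = 2), PRC1cKO after Win18,446 (58.5 ± 43.5), PRC1cKO at 2 mo (46.95 ± 31.2), WT Aundiff (35.9 ± 16.2), WT Adiff (27.96 ± 23.2) and PRC1ctrl at 2 mo (1.42 ± 0.01). The libraries of neighbouring groups overlapped at every step of this order except the last. PRC1ctrl after Win18,446 had the highest mean of 7 members, the exceptions being *Lhcgr* (PRC1cKO at 2 mo) and *Nr5a1* (PRC1cKO after Win18,446), and PRC1ctrl at 2 mo the lowest of 8, the exception being *Lhcgr* (WT Aundiff). In bulk RNA, fewer Leydig cells, less of their RNA per cell and a change of these genes in the sorted germ cells cannot be told apart. The last bears on the PRC1cKO label, since the study concludes that PRC1 keeps somatic genes from ectopic expression in Aundiff. It was not tested for these genes.

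**Figure D2:**
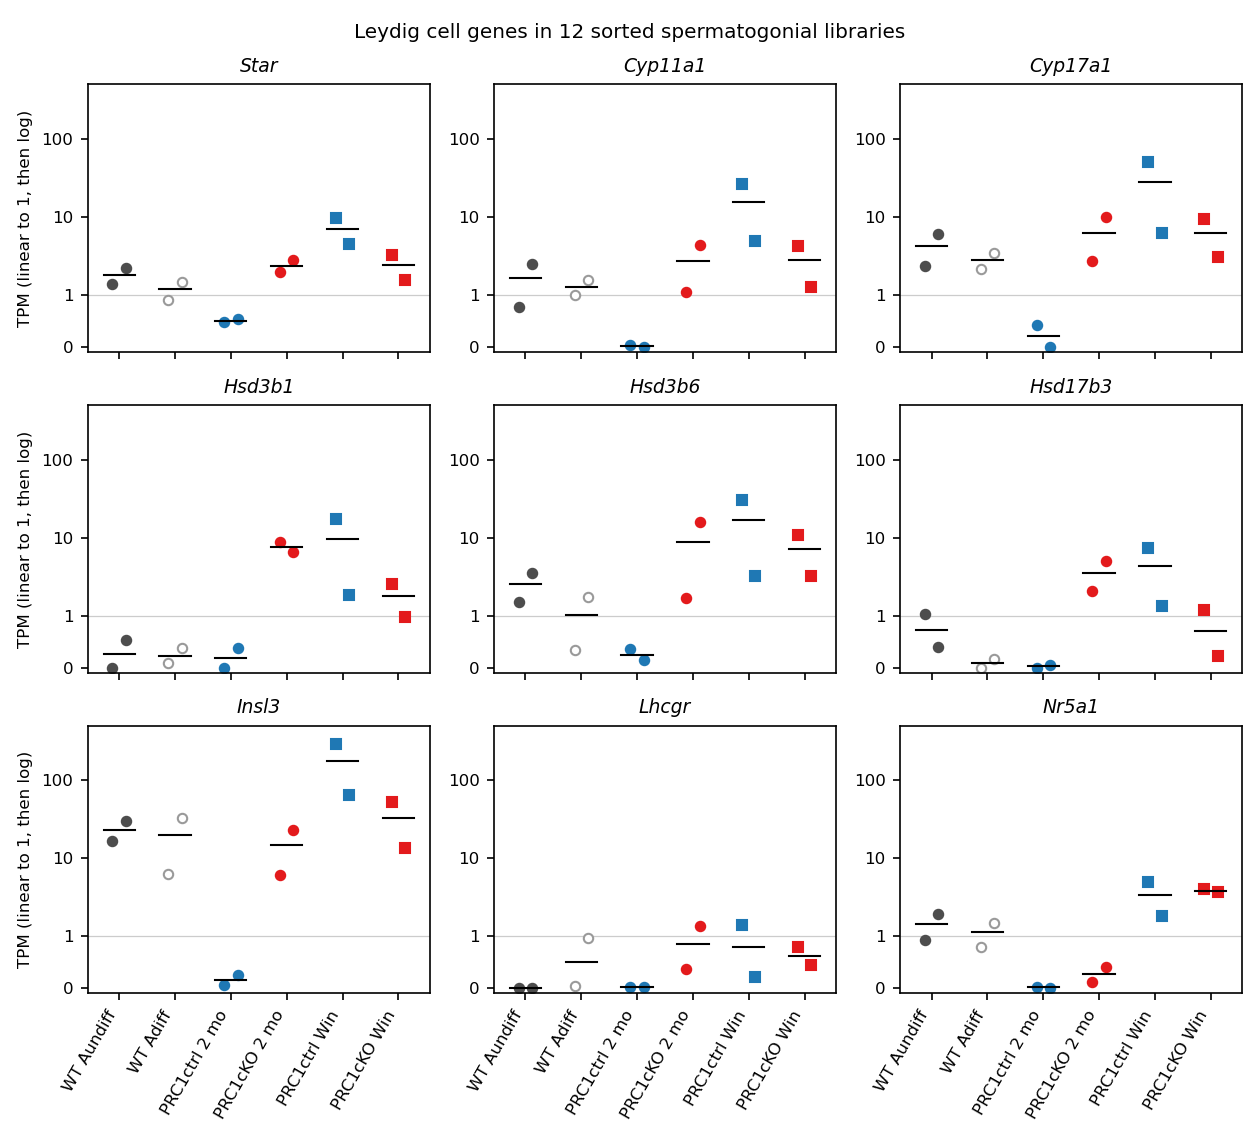
TPM of each of the 9 Leydig genes (y axis, linear up to 1 TPM and logarithmic above) in the 6 groups (x axis), with 1 point per library and a line at the group mean (grey, WT; blue, PRC1ctrl; red, PRC1cKO; squares, after Win18,446). In all 9 panels both red circles lie above both blue circles, and in each panel the left blue square, replicate 1 of PRC1ctrl after Win18,446, lies above the right.

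The import of cholesterol into mitochondria is the rate-limiting step of steroid synthesis. *Star*, which carries it out (GRCm38 chr8:25806555-25815982), was at 1.39 and 2.23 TPM in WT Aundiff, 0.91 and 1.48 in WT Adiff, 0.48 and 0.54 in PRC1ctrl and 2.0 and 2.78 in PRC1cKO at 2 mo, and 9.72 and 4.46 in PRC1ctrl and 3.3 and 1.57 in PRC1cKO after Win18,446. It was the steadiest member, above 0 in all 12 libraries and never more than 2.18 times higher in a replicate than in its partner. PRC1ctrl exceeded PRC1cKO without overlap after Win18,446 and lay below it without overlap at 2 mo.

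The enzymes that follow were, by group mean, lowest in PRC1ctrl at 2 mo. *Cyp11a1*, the side-chain cleavage enzyme (chr9:58006411-58027023), was at 0.77 and 2.5 TPM in WT Aundiff, 1.01 and 1.55 in WT Adiff, 0.04 and 0.01 in PRC1ctrl and 1.08 and 4.38 in PRC1cKO at 2 mo, and 26.6 and 4.87 in PRC1ctrl and 4.28 and 1.28 in PRC1cKO after Win18,446. *Cyp17a1*, the 17-alpha-hydroxylase and lyase (chr19:46667165-46673172), was at 2.35 and 6.06 TPM in WT Aundiff, 2.17 and 3.46 in WT Adiff, 0.43 and 0 in PRC1ctrl and 2.72 and 9.87 in PRC1cKO at 2 mo, and 50.3 and 6.23 in PRC1ctrl and 9.52 and 3.05 in PRC1cKO after Win18,446. Both were near 0 only in the untreated PRC1ctrl libraries. *Hsd17b3*, the enzyme of the last step to testosterone in the testis (chr13:64058266-64089230), was at 1.05 and 0.39 TPM in WT Aundiff, 0 and 0.16 in WT Adiff, 0 and 0.06 in PRC1ctrl and 2.09 and 4.96 in PRC1cKO at 2 mo, and 7.26 and 1.31 in PRC1ctrl and 1.18 and 0.23 in PRC1cKO after Win18,446. It was thus barely measured in WT, in contrast to *Cyp17a1*.

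The paralogs of 3-beta-hydroxysteroid dehydrogenase, which turn delta-5 into delta-4 steroids, differed from each other. *Hsd3b6*, the form of adult Leydig cells (chr3:98805504-98814443), was at 1.5 and 3.53 TPM in WT Aundiff, 0.33 and 1.71 in WT Adiff, 0.35 and 0.14 in PRC1ctrl and 1.68 and 15.7 in PRC1cKO at 2 mo, and 30.7 and 3.23 in PRC1ctrl and 10.95 and 3.19 in PRC1cKO after Win18,446. *Hsd3b1* (chr3:98852194-98859794), which is also made in the adrenal gland, was at 0 and 0.54 TPM in WT Aundiff, 0.08 and 0.37 in WT Adiff, 0 and 0.37 in PRC1ctrl and 8.74 and 6.63 in PRC1cKO at 2 mo, and 17.2 and 1.83 in PRC1ctrl and 2.56 and 0.97 in PRC1cKO after Win18,446. *Hsd3b6* exceeded *Hsd3b1* in 10 of the 12 libraries, the exceptions being replicate 1 of PRC1cKO and replicate 2 of PRC1ctrl at 2 mo. In PRC1cKO at 2 mo the replicates of *Hsd3b6* were 9.32-fold apart and those of *Hsd3b1* 1.32-fold apart and in the opposite order, so the paralogs did not follow a common level there.

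*Insl3* (chr8:71689214-71690575) was the most abundant member in 9 of the 12 libraries. It was at 16.5 and 30.1 TPM in WT Aundiff, 6.21 and 33.2 in WT Adiff, 0.06 and 0.26 in PRC1ctrl and 6.08 and 23.0 in PRC1cKO at 2 mo, and 292 and 64.5 in PRC1ctrl and 52.7 and 13.3 in PRC1cKO after Win18,446. The exceptions were the untreated PRC1ctrl libraries, led by *Star*, and replicate 1 of PRC1cKO at 2 mo, led by *Hsd3b1*, all made with the low-input kit. *Lhcgr*, the luteinizing hormone receptor (chr17:88716481-88791990), was at 0.01 and 0 TPM in WT Aundiff, 0.05 and 0.96 in WT Adiff, 0.03 and 0.03 in PRC1ctrl and 0.36 and 1.35 in PRC1cKO at 2 mo, and 1.39 and 0.21 in PRC1ctrl and 0.79 and 0.45 in PRC1cKO after Win18,446. It reached 1 TPM in 2 libraries and was the lowest member of the set by mean. *Nr5a1* (chr2:38692656-38714542), the regulator, was at 0.92 and 1.91 TPM in WT Aundiff, 0.8 and 1.47 in WT Adiff, 0.03 and 0 in PRC1ctrl and 0.12 and 0.41 in PRC1cKO at 2 mo, and 4.96 and 1.83 in PRC1ctrl and 3.98 and 3.67 in PRC1cKO after Win18,446. NR5A1 is also made by Sertoli cells, and *Nr5a1* was the member whose PRC1cKO libraries after Win18,446 did not sit below those of PRC1ctrl on average. Its antisense gene *Nr5a1os* reached at most 0.18 TPM.

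The makeup of the signal also differed between the TruSeq libraries and PRC1cKO at 2 mo. Kit, number of cells and genotype or treatment changed together there and cannot be told apart. *Insl3* held 48.0% to 74.9% of the summed TPM of the 9 genes in the 8 TruSeq libraries, and 24.5% and 33.3% in PRC1cKO at 2 mo. The ratio of *Insl3* to *Cyp17a1* was 2.86 to 10.4 in the TruSeq libraries and 2.24 and 2.33 in PRC1cKO at 2 mo. *Insl3* is the member richest in G + C, and the part of the kit in this difference was not tested. *Hsd3b1* held 35.1% of the sum in replicate 1 of PRC1cKO at 2 mo, 9.60% in replicate 2 and at most 3.92% in any TruSeq library. Shares in the untreated PRC1ctrl libraries rest on a total of 1.42 TPM and are too small to be read.

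**Figure D3:**
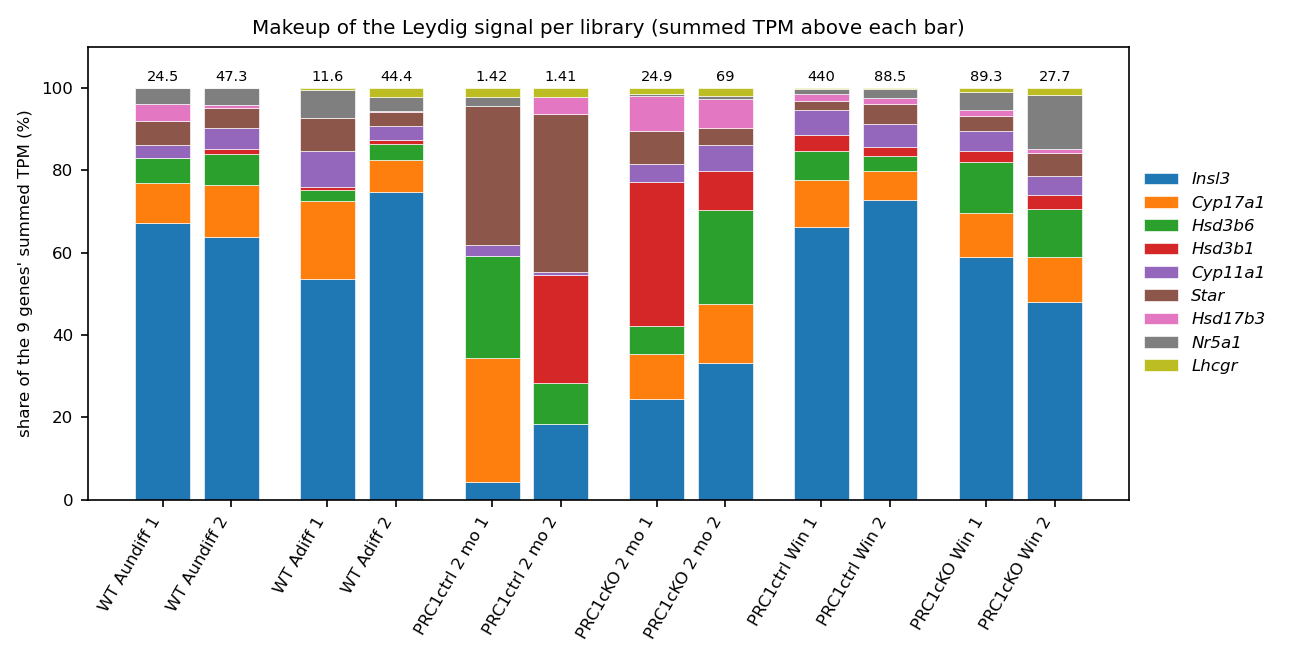
Share of each Leydig gene in the summed TPM of the 9 genes (y axis, %) in each library (x axis), with the summed TPM above each bar. *Insl3* fills 48.0% to 74.9% of the TruSeq bars and less of the 4 low-input bars at 2 mo.

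Between WT Aundiff and WT Adiff no Leydig gene passed the test for a difference. Values were compared as log2(TPM + 1) with limma, and a gene was called at an adjusted p under 0.05 (Benjamini-Hochberg, over all genes tested) and a fold change above 2. Of the 9 members 6 passed the filter of 1 TPM in at least 2 of the 4 libraries, and 0 of these 6 were called, against 20.4% of all genes tested. An unadjusted p under 0.05 was found for 0 of the 6 and for 49.1% of all genes tested. The log2 fold changes in Adiff were -0.35 (SE 0.31, limma adjusted p 0.399) for *Star*, -0.14 for *Cyp11a1*, -0.37 for *Cyp17a1*, -0.83 (SE 0.46, limma adjusted p 0.196) for *Hsd3b6*, -0.57 for *Insl3* and -0.16 for *Nr5a1*. The standard error of *Insl3* was 0.95, since its Adiff libraries were 5.35-fold apart. The libraries overlapped for 7 of the 9 members, *Hsd17b3* being lower and *Lhcgr* higher in Adiff without overlap, both at 1.05 TPM or less, where 72.1% of all genes tested did not overlap in either direction. The members' median was -0.36, and that of all genes 0.15. Without replicate 2 of WT Adiff, which held 3.84 times the Leydig sum of its partner, *Hsd3b6* (-1.34) and *Insl3* (-1.69) were called lower in Adiff.

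At 2 mo, without treatment, Leydig genes lay higher in PRC1cKO. Both PRC1cKO libraries exceeded both PRC1ctrl libraries for all 9 members, as did 21.1% of the 32181 genes above 0 in any of these libraries and 27.5% of the 13953 genes tested. The summed TPM was 33.2-fold higher by group mean. The call was made for *Hsd3b1* alone, which rose by 2.88 on the log2 scale (SE 0.42, limma adjusted p 0.0421), and 0.222% of the genes tested were called higher. Of the others, *Insl3* differed by 3.50 (SE 0.66, limma adjusted p 0.0755), *Hsd3b6* by 2.43 (SE 0.88, limma adjusted p 0.297), *Cyp17a1* by 2.41 (SE 0.61, limma adjusted p 0.139) and *Hsd17b3* by 2.06 (SE 0.43, limma adjusted p 0.0923), and none of these was called. *Cyp11a1* differed by 1.71 (SE 0.51, limma adjusted p 0.203) and *Star* by 1.16 (SE 0.35, limma adjusted p 0.204). *Lhcgr* and *Nr5a1* did not pass the filter. Within this kit the median difference between the labels was 0.08 among genes under 40% G + C and 0.26 among those of at least 55%. The 7 members tested passed it through their PRC1cKO libraries alone, so they had to be higher there, and their median (2.41, against 0.23 over all genes tested) adds nothing to this. The fold changes are compressed where PRC1ctrl is near 0, and which members were called depended on the processing: 4 were called higher after median-of-ratios scaling (*Cyp17a1*, *Hsd17b3*, *Hsd3b1* and *Insl3*) and 0 without the filter or without replicate 1 of PRC1ctrl.

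**Figure D4:**
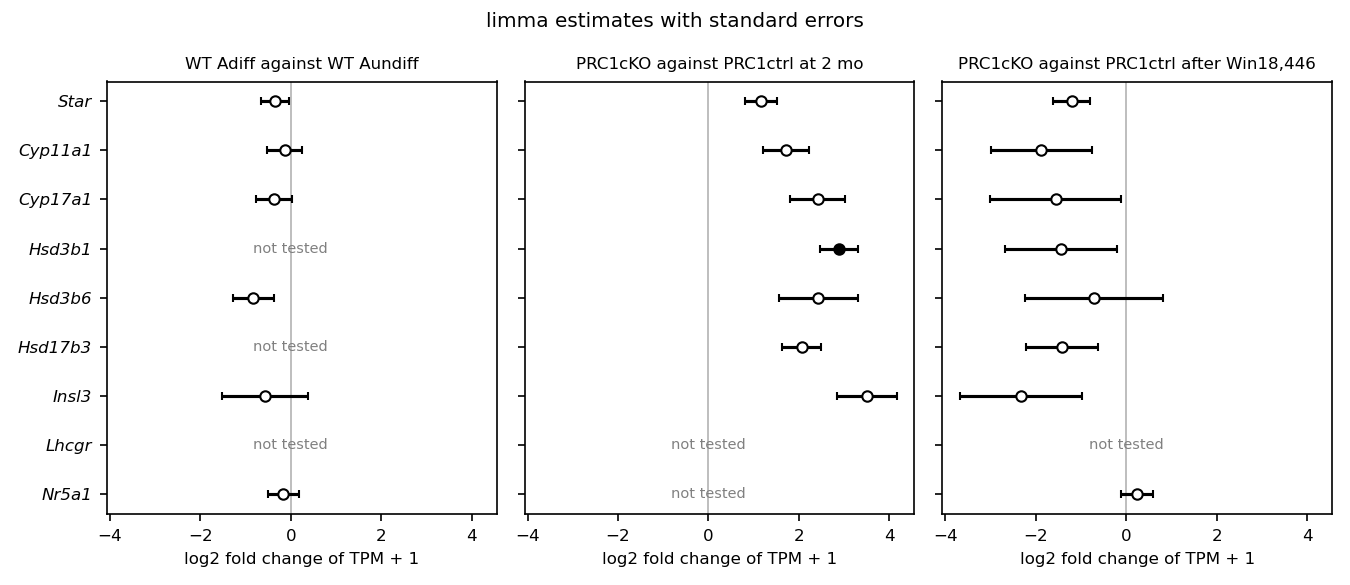
Fold change of each Leydig gene (x axis, difference in log2(TPM + 1); bars, SE from limma) in WT Adiff against WT Aundiff and in PRC1cKO against PRC1ctrl at 2 mo and after Win18,446, with filled points for called genes and "not tested" where a gene did not pass the filter. The 7 estimates at 2 mo lie between 1.16 and 3.50, with *Hsd3b1* filled, and 7 of the 8 after Win18,446 lie below 0.

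Other cell types were followed alongside at 2 mo. Markers of spermatids, the haploid germ cells, moved the other way, from 772.8 and 1816 summed TPM in PRC1ctrl to 65.2 and 59.1 in PRC1cKO, and 5 of the 7 tested of the 9 listed were called lower, among them *Prm1* (-8.14, limma adjusted p 0.0172). *Prm1* (0.21 and 0.99 TPM in PRC1cKO), *Prm2* (0.26 and 0.14) and *Tnp2* (0.46 and 0.6) passed the filter through their PRC1ctrl libraries alone. So did *Odf1* (0.61 and 0.86 TPM in PRC1cKO) and *Akap4* (0.39 and 0.31). These markers had to be lower in PRC1cKO, so the count of spermatid calls is a description. Over all genes tested, 1.94% were called lower, and the median difference was 0.23. The summed levels of 4 somatic lists overlapped between the labels. For macrophage markers the overlap depended on single genes such as *Fcer1g*, without which the sums were higher in PRC1cKO without overlap. *Fcer1g* was at 16.8 and 13.4 TPM in PRC1ctrl and at 10.4 and 20.0 TPM in PRC1cKO. Sertoli cell markers summed to 57.02 and 93.6 TPM in PRC1ctrl and to 72.9 and 112 in PRC1cKO, and peritubular myoid markers to 13.6 and 36.0 against 12.2 and 28.2. Macrophage markers summed to 23.9 and 30.2 against 28.5 and 52.4, with 3 of 12 at 0 in each PRC1ctrl library and 3 and 0 in the PRC1cKO libraries, and endothelial markers to 7.65 and 2.09 against 4.31 and 5.73. Of these 4 lists 0 of the 19 genes tested were called. The 1 call among the 7 members is no like measure, since these passed the filter through their PRC1cKO libraries alone. Single markers were higher in PRC1cKO without overlap, namely 4 of 14 Sertoli, 1 of 8 myoid, 5 of 12 macrophage and 2 of 7 endothelial genes, where the share of all genes above 0 was 21.1%. Lower without overlap were 1 of 8 myoid, 2 of 12 macrophage and 0 Sertoli or endothelial genes, as were 2419 of the 13953 genes tested. Of the higher ones, *Lyz2*, a lysozyme of macrophages, was at 0.02 and 1.87 TPM in PRC1ctrl and at 4.71 and 15.0 TPM in PRC1cKO. *Clu*, a Sertoli cell marker, was at 2.24 and 9.52 TPM against 19.5 and 29.0 TPM. *Lyz2* and *Clu* were named for being higher. Of the lower ones, the myoid gene *Actg2* was at 2.72 and 12.6 TPM in PRC1ctrl and at 0.26 and 0.39 TPM in PRC1cKO. The lower macrophage genes were *Mrc1* (1.66 and 2.92 TPM against 1.04 and 0.82) and *C1qb* (1.3 and 0.26 against 0 and 0.07). The most abundant Sertoli marker, *Tjp1*, overlapped (16.3 and 11.5 TPM against 13.5 and 18.1). Kallikreins of the Leydig cell (*Klk1b21*, *Klk1b24* and *Klk1b27*) summed to 0 and 0.27 TPM in PRC1ctrl and to 2.02 and 5.02 TPM in PRC1cKO. Each was at 1.74 TPM or less in these libraries, 1 of the 3 passed the filter, and 0 were called. Mitochondrial genes held 16.7% and 14.8% of PRC1ctrl and 14.4% and 12.5% of PRC1cKO libraries. The part of the marker levels and of the mitochondrial share in the Leydig difference was not tested.

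**Figure D5:**
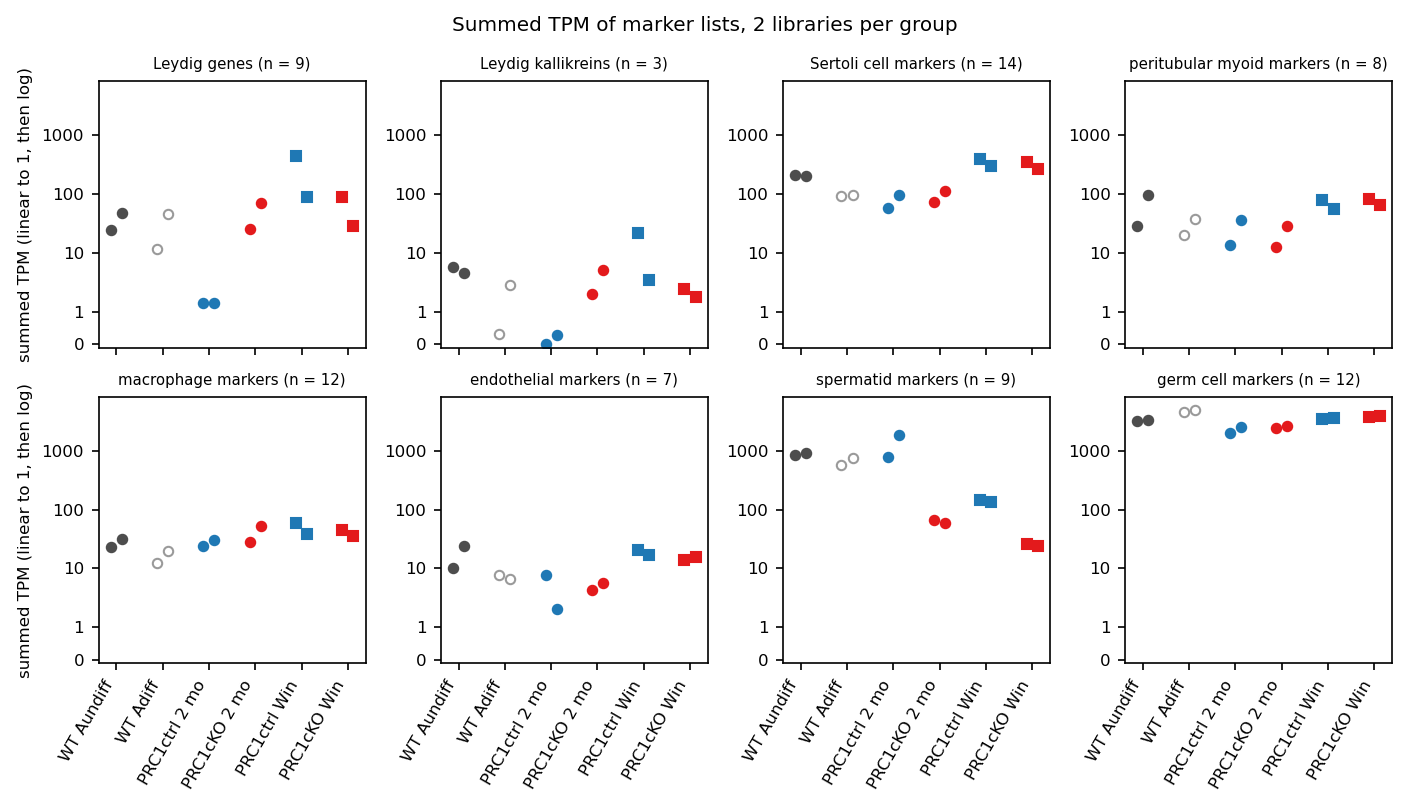
Summed TPM (y axis, linear up to 1 and logarithmic above) of the Leydig genes and of 7 marker lists (number of genes in each title) in the 6 groups (x axis), 1 point per library, with symbols as for the single genes. The Leydig genes and the kallikreins have both red circles far above both blue circles at 2 mo, spermatid markers have them far below, and the Sertoli, myoid, macrophage and endothelial lists overlap or lie close.

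After Win18,446 the direction was the opposite, within a wide spread. The PRC1cKO sum was 4.52-fold below that of PRC1ctrl by group mean, but 89.3 TPM in the higher PRC1cKO library was close to 88.5 TPM in the lower PRC1ctrl library. Of the 9 members, 4 were lower in PRC1cKO without overlap (*Star*, *Cyp11a1*, *Hsd17b3* and *Insl3*), as were 49.3% of all genes tested, so the members' count was near the background. With limma 0 of the 8 members tested were called, and 10.9% of all genes tested were called lower. An unadjusted p under 0.05 was found for 1 member (*Star*) and for 44.3% of all genes tested. The log2 fold changes in PRC1cKO were -1.20 (SE 0.41, limma adjusted p 0.0822) for *Star*, -1.88 (SE 1.12) for *Cyp11a1*, -1.56 (SE 1.45) for *Cyp17a1*, -1.44 (SE 1.25) for *Hsd3b1*, -0.71 (SE 1.52) for *Hsd3b6*, -1.42 (SE 0.79) for *Hsd17b3*, -2.32 (SE 1.35, limma adjusted p 0.333) for *Insl3* and 0.23 (SE 0.36) for *Nr5a1*. The median was -1.43, and that of all genes tested -0.19. Replicate 1 exceeded replicate 2 for all 9 members under both labels. Without replicate 1 of PRC1ctrl the estimates were -0.15 for *Cyp17a1*, -0.10 for *Hsd3b1*, -1.24 for *Insl3*, -0.72 for *Star*, 0.74 for *Hsd3b6* and 0.77 for *Nr5a1*, the last with a limma adjusted p of 0.0287 but a fold change under 2. Without replicate 2 of PRC1ctrl, *Hsd17b3* (-2.33), *Hsd3b1* (-2.78) and *Star* (-1.69) were called lower.

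Replicate 1 of PRC1ctrl was also higher than its partner in the summed levels of other somatic markers, by smaller ratios. That library held 6.39 times the kallikrein TPM of its partner, next to 4.97 times for the 9 genes, but 1.53 times the macrophage, 1.42 times the myoid, 1.31 times the Sertoli and 1.20 times the endothelial markers. The germ cell markers stood at 0.973 of the partner. Gene by gene, replicate 1 exceeded replicate 2 for 10 of 12 macrophage and 12 of 14 Sertoli markers, with median ratios of 1.59 and 1.53 against 5.54 over the 9 members. Single markers, named here after their values were seen, had ratios within the range of the members: the macrophage gene *Adgre1* was at 1.14 TPM against 0.13, *Csf1r* at 2.13 against 0.41, and the Sertoli cell receptor *Fshr* at 0.78 against 0.18. Within the 9 genes the excess ran from 2.18-fold for *Star* to 9.51-fold for *Hsd3b6*. In the PRC1cKO libraries, Sertoli cell markers summed to 346 and 257 TPM against 389.6 and 297 in PRC1ctrl, and red blood cell markers to 0.27 and 0.52 against 8.76 and 8.64, with 3 of 5 at 0 in each PRC1cKO library. All 3 tested red blood cell markers were called lower (10.9% of all genes tested), led by *Hbb-bs*, a beta globin (-2.15, limma adjusted p 0.00176). These 3 passed the filter through their PRC1ctrl libraries alone, so they had to be lower in PRC1cKO and their count is a description. The part of the red blood cell markers in the Leydig difference was not tested.

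The PRC1cKO effects under the 2 conditions were compared directly, in a fit over the 8 PRC1 libraries with label, series and their product. All 9 members passed its filter, and their interaction terms (effect after Win18,446 minus effect at 2 mo, called here at an adjusted p under 0.05) were below 0 throughout. *Insl3* was called, at -5.82 on the log2 scale (SE 1.33, limma adjusted p 0.0478), as were 5.03% of the 18354 genes tested in that direction. *Star* (-2.36, SE 0.55, limma adjusted p 0.0502), *Hsd17b3* (-3.47, SE 0.89, limma adjusted p 0.0647) and *Hsd3b1* (-4.32, SE 1.14, limma adjusted p 0.0695) were not called. *Cyp17a1* (-3.97), *Cyp11a1* (-3.58), *Hsd3b6* (-3.14), *Lhcgr* (-0.87) and *Nr5a1* (-0.08) were further from the threshold, and the term of *Nr5a1* turned to 0.11 after median-of-ratios scaling. The median was -3.47 over the members and -0.41 over all genes tested. The call of *Insl3* was lost when any of the 8 libraries was left out. Treatment, library kit and number of cells changed together between the series and cannot be told apart.

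Other genes of the pathway, from fixed lists, were followed next. The 14 genes of electron transfer and cholesterol supply, among them *Npc2*, *Por* and *Stard4*, are used by most cells and summed to 301.9 to 592.7 TPM. None of them was called under the PRC1cKO label at 2 mo (12 tested) or after Win18,446 (14 tested), and 1 of 14 was called lower in WT Adiff. Of 14 other steroid enzymes, led by *Hsd17b12*, which also elongates fatty acids, 2 of 4 tested were called lower in WT Adiff, 1 of 5 was called higher at 2 mo, and 1 of 8 was called in each direction after Win18,446. Over all genes tested, 9.24% were called lower in WT Adiff, 0.222% higher at 2 mo, and 1.27% higher and 10.9% lower after Win18,446. The call at 2 mo was the estrogen sulfotransferase *Sult1e1*, named after its values were seen. It too passed the filter through its PRC1cKO libraries alone, so its values are a description. It stood at 0.42 and 0.94 TPM in PRC1ctrl and at 12.6 and 8.83 TPM in PRC1cKO at 2 mo, and at 2.99 and 0.36 TPM against 0.13 and 0 TPM after Win18,446. Like *Hsd3b1*, it was higher in replicate 1 of PRC1cKO at 2 mo. Of 13 Leydig transcription factors and receptors, 0 were called under the PRC1cKO label at 2 mo (4 tested) or after Win18,446 (11 tested) with limma, and 1 and 3 had an unadjusted p under 0.05, as did 14.2% and 44.3% of all genes tested. In WT Adiff 1 of the 8 tested was called higher and 2 lower, where 20.4% of all genes tested were called in either direction. The most abundant of the 13, the hedgehog receptor *Ptch1*, was at 40.7 and 45.2 TPM in WT Aundiff and fell by 3.66 on the log2 scale (limma adjusted p 0.00151) in WT Adiff, where no member was called.

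The members resembled each other across the 12 libraries. The 36 pairwise Pearson correlations of log2(TPM + 1) ran from 0.285 (*Hsd17b3* and *Nr5a1*) to 0.98 (*Cyp11a1* and *Cyp17a1*), with a median of 0.784. Correlation with the members' mean was 0.986 for *Cyp17a1*, 0.978 for *Cyp11a1*, 0.970 for *Star*, 0.954 for *Hsd3b6* and 0.922 for *Insl3*, which are themselves part of that mean. It was 0.847 for *Hsd17b3*, 0.804 for *Hsd3b1*, 0.775 for *Lhcgr* and 0.721 for *Nr5a1*, so the least abundant members and the *Hsd3b1* paralog fitted the common level least. Among the 19210 genes ranked, those outside the set with the most similar pattern were *Vcam1* (0.936), *Ces1d* (0.935), *Ephx1* (0.906), *Lyz2* (0.904), *AU021092* (0.888), *Klk1b24* (0.886), *Prss35* (0.884), *Fcgrt* (0.877), *Klk1b27* (0.876) and *C1s1* (0.874). *Vcam1*, an adhesion molecule, was at 21.0 TPM in replicate 1 of PRC1ctrl after Win18,446 and at 1.68 TPM in replicate 2. *Lyz2* had the closest pattern of these 10 once that replicate was left out (0.940 over 11 libraries), when *Vcam1* stood at 0.870. These correlations share the library, its kit and its outlying replicate, and no p is given for them.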

How the data were processed

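RNA-seq of 12 libraries was examined. The authors trimmed reads with Trim Galore 0.6.6 and deposited TPM values per gene, computed with RSEM 1.3.3. HISAT2 2.2.1, SAMtools 1.9 and HTSeq 1.6.0 were stated for their read counts, which were not used here, and the aligner behind the TPM is not given in the sources used here. Coordinates of the 9 genes are those of the table and match gencode vM21 (GRCm38). Depth per library cannot be recovered from TPM, so no counting interval is given, and the error rests on 2 libraries per group.

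TPM entered as log2(TPM + 1) with no other scaling, on genes with at least 1 TPM in at least 2 of the libraries compared. Each comparison was fitted with limma 3.58.1 in R 4.3.3 (trend and robust moderation, two-sided), on its own 4 libraries or, for the interaction, on 8, with Benjamini-Hochberg adjustment across every gene of the fit. The call asked for an adjusted p under 0.05 together with a log2 fold change beyond 1 in either direction, and in the interaction for the adjusted p alone. With 2 libraries against 2, an exact permutation test of a single value cannot go below p = 0.33, so sums were not tested. The procedure was tested on simulated data. Changes were added there only to genes above a set mean level, which no member reached at 2 mo, so the simulation does not bear on the member calls at that age. Tables were made with Python 3.11.15 and pandas 2.3.3.

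The 9 genes and the 11 other lists were chosen with earlier results of these data known. All 9 genes are named in each comparison. Of the other lists, the 4 genes with the highest mean TPM may be named, and *Sult1e1*, *Adgre1*, *Csf1r* and *Fshr* were named after their values were seen. *Jak3*, *Nr5a1os* and the *Hsd3b* paralogs are named as overlapping or related genes, *Ring1* and *Rnf2* as the deleted genes, and the 10 genes most alike in pattern by Pearson correlation. Alternatives were a pseudocount of 0.1, no filter, a mean of at least 5 TPM, median-of-ratios scaling, the replicate number as a block, all 12 libraries in the same fit, plain moderation (neither trend nor robust), and each library left out.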

Additional observations from a re-analysis of the deposited data

Results flagged for a closer look

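The effect of the PRC1cKO label went in opposite directions at 2 mo and after Win18,446 for 4 Leydig genes, with libraries that did not overlap in either condition: higher in PRC1cKO at 2 mo and lower in PRC1cKO after treatment. The difference between the effects on the log2(TPM + 1) scale was -2.36 for *Star*, -3.58 for *Cyp11a1*, -3.47 for *Hsd17b3* and -5.82 for *Insl3*. Of these, the difference passed the interaction test for *Insl3* (limma adjusted p 0.0478), and it did not for *Star* (0.0502), *Hsd17b3* (0.0647) and *Cyp11a1* (0.113), each a limma adjusted p. Genes higher at 2 mo and lower after treatment without overlap made up 10.5% of the 18354 genes tested, and since these 4 were picked for this pattern, their interaction terms are no separate support for it. The adjusted p of *Insl3* was between 0.0526 and 0.166 when libraries were left out in turn. The untreated libraries came from the low-input kit and the treated from TruSeq, which cannot be told apart from the treatment here.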

How the results depend on the processing

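In place of 1 called member at 2 mo, 0 were called without a filter or with a mean of at least 5 TPM, where 1 member was tested, while 4 were called after median-of-ratios scaling and 3 in the fit over all 12 libraries. Leaving out a library gave 0 to 2 calls. Without either PRC1cKO library no member passed the filter; without a filter as well, an alternative chosen after seeing the data, 0 were called and *Hsd3b1* stood at 2.71 and 3.06. Over all genes, 31 were called higher and 270 lower at 2 mo, 84 and 833 after median-of-ratios scaling (median of all genes -0.03 instead of 0.23), 662 and 1049 over all 12 libraries, and 0 and 0 without a filter. After Win18,446, leaving out a library gave 0 to 3 calls, and in WT 0 to 2. For the interaction, 0 members were called without a filter or with a mean of at least 5 TPM, 2 after median-of-ratios scaling, 4 over all 12 libraries, and 0 to 1 when a library was left out. With a pseudocount of 0.1 the single calls were *Insl3* in place of *Hsd3b1* at 2 mo and *Insl3* in the interaction.

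The replicate numbers do not state a shared litter or batch, and with 2 pairs the pairing cannot be settled: same-numbered libraries deviated together with correlations of 0.158 in WT, 0.381 at 2 mo and 0.122 after Win18,446. With the replicate number as a block, 6 members were called higher at 2 mo (all tested but *Hsd3b6*), 4 lower after Win18,446 (*Star*, *Cyp11a1*, *Hsd17b3* and *Insl3*) and 0 in WT, and the interaction called *Star* in place of *Insl3*. Over all genes the block gave 1074 calls higher and 1098 lower at 2 mo.

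Signs changed only in estimates not called with all libraries. When a library was left out, log2 fold changes in WT ran from -0.63 to 0.36 for *Cyp11a1*, from -0.91 to 0.17 for *Cyp17a1*, from -1.69 to 0.55 for *Insl3* and from -0.47 to 0.063 for *Nr5a1*. After Win18,446 they ran from -2.16 to 0.74 for *Hsd3b6* and from -0.31 to 0.77 for *Nr5a1*, and the interaction term of *Nr5a1* ran from -0.61 to 0.46, with 0.11 after median-of-ratios scaling. The cause was not tested. Without depth, the counting error of values under 1 TPM is unknown.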
